A study of Mus musculus with 5 samples.

Results

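YAP and TAZ are coactivators that carry the output of the Hippo pathway to the genome, and their genes were examined here in newborn mouse sciatic nerve with and without Ebf2. The genes were taken from the deposited table by symbol, from a list of 10: the coactivator genes Yap1 and Wwtr1, their DNA-binding partner Tead1, and the targets and regulators Ccn1, Ctgf, Ankrd1, Amotl2, Fhl2, Ajuba and Lats2. Of these, 6 had a probe set with a single gene symbol among the 9407 genes named in the table: Fhl2, Ccn1, Ccn2, Ankrd1, Lats2 and Ajuba. Ctgf is listed under its current symbol Ccn2 and was matched through RefSeq synonyms. Yap1, Wwtr1, Tead1 and Amotl2 are not analysed here, so the results concern targets and regulators and not the coactivators.

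Sciatic nerves were taken from pups at postnatal day 2 on a C57Bl6N background, born to crosses of heterozygous parents. Each array measured total RNA from 1 pool of 12 nerves. The Ebf2+/+ group had 3 pools, called WT pools 1, 9 and 11 here, and the Ebf2-/- group had 2, called KO pools 2 and 4. Ebf2 is one of the early B cell factors, a small family of DNA-binding proteins, and the labels name no Cre driver or transgene, nor the litters behind a pool. All levels are log2 values made by the authors with RMA, each difference is KO minus WT on the log2 scale, and the level of one gene cannot be set against that of another because probe sets differ in response.

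In the Hippo pathway a chain of kinases that ends with LATS1 and LATS2 phosphorylates YAP and TAZ and keeps them out of the nucleus. When the chain is inactive, as in cells that are spread or under tension, YAP and TAZ enter the nucleus, bind TEAD factors and switch on genes such as Ccn1, Ccn2 and Ankrd1, and also genes of their own inhibitors. In Schwann cells YAP and TAZ are known to be needed for the sorting of axons and for myelination.

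The arrays matched their labels at the deleted gene, since Ebf2 was at 11.55 in WT pool 1, 11.14 in WT pool 9, 11.40 in WT pool 11, 9.25 in KO pool 2 and 8.75 in KO pool 4 (adjusted p = 4.97e-07 by limma). Array medians lay between 8.93 and 9.11. The Schwann lineage factor Sox10 was at 11.64 to 11.65 in 4 pools and at 11.24 in KO pool 4. Of 10 Schwann cell markers 4 were measured, and their mean was 11.78 in WT pool 1, 11.78 in WT pool 9, 11.83 in WT pool 11, 11.72 in KO pool 2 and 11.27 in KO pool 4. WT pools 9 and 11 stood apart from WT pool 1. The mean of 9 of 10 keratinocyte markers was 9.70 and 8.86 there against 7.37 in WT pool 1, and 7.39 and 7.67 in KO pools 2 and 4. The mean of 12 of 12 skeletal muscle markers was 11.70 and 11.52 against 10.15, and the KO pools, at 10.63 and 10.87, lay 0.48 and 0.71 above WT pool 1, so WT pool 1 did not match them in muscle markers either. The difference of each of the 6 genes is therefore also given against WT pool 1 alone. In a bulk sample, fewer cells of a type and less RNA per cell cannot be told apart.

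Fhl2 rose in the KO pools, and it alone of the 6 genes passed the test over all probe sets. The other 5 were higher in both KO pools than in every WT pool and did not pass. Their group means differed by 0.24 to 0.92 on the log2 scale, but the gaps between the groups were smaller. KO pool 2 was above WT pool 1 by only 0.036 for Ccn2, 0.063 for Ajuba, 0.071 for Lats2 and 0.18 for Ccn1. For Ankrd1 the nearer KO pool was KO pool 4, at 0.19 above WT pool 1. A gene was called at an adjusted p below 0.05 in limma, which held for 0.676% of the 10361 probe sets in either direction and for 0.347% as a rise. At unadjusted p below 0.05, 4 of the 6 genes were higher in KO (Fhl2, Ccn2, Ccn1 and Ankrd1), against 7.14% of all probe sets. The groups did not overlap in 6 of 6, with KO higher, against 17.5% of all probe sets. The 4 genes without a value here could not enter these counts, and every probe set of the table had a spread of at least 0.175 between its fourth-ranked and lowest pool. The counts thus describe 6 genes with some spread between pools and not the list of 10.

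**Figure D1:**
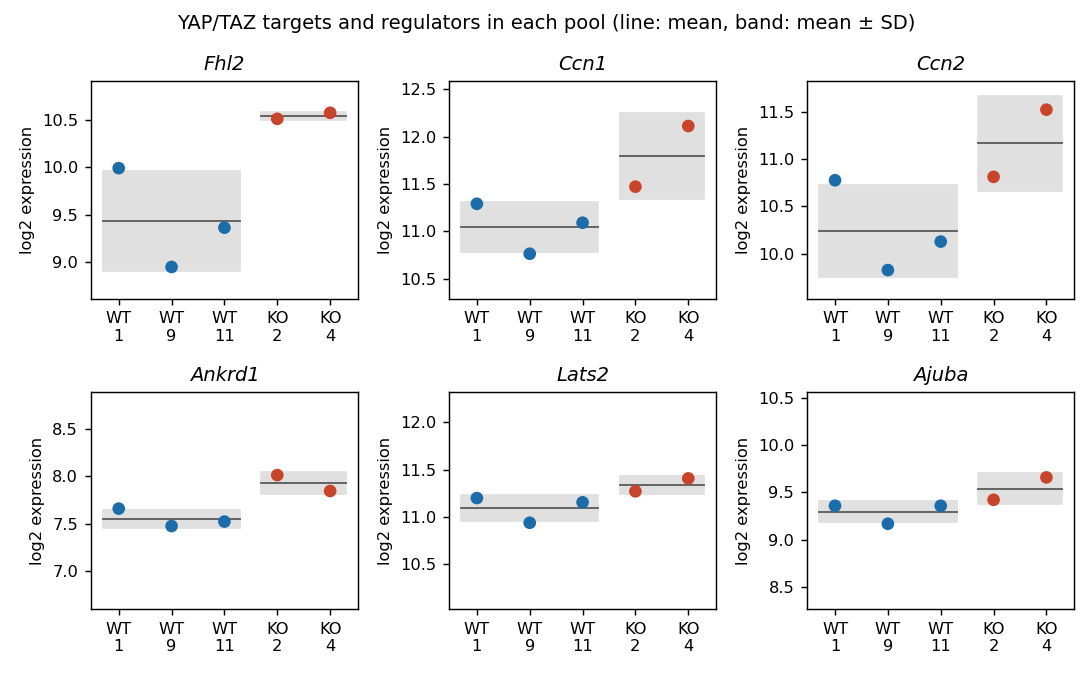
Log2 expression of Fhl2, Ccn1, Ccn2, Ankrd1, Lats2 and Ajuba in each pool (blue, WT pools 1, 9 and 11; red, KO pools 2 and 4), with the group mean as a line and mean ± SD as a grey band; all panels span the same log2 range. In each panel both KO points lie above all WT points, with the widest gap for Fhl2 (0.52 between WT pool 1 and KO pool 2) and the narrowest for Ccn2 (0.036).

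Among the targets, Fhl2 encodes a protein of LIM domains that serves as a transcriptional cofactor and is also found at actin fibres. Its probe set (10354247) read 9.99 in WT pool 1, 8.95 in WT pool 9, 9.36 in WT pool 11, 10.51 in KO pool 2 and 10.58 in KO pool 4. The KO pools were close together (SD 0.05, n = 2) and above every WT pool, while the WT pools were spread widely (SD 0.53, n = 3). The mean rose from 9.43 to 10.55, a 2.16-fold rise (log2 fold change 1.11, SE 0.22, 95% confidence interval 0.65 to 1.57, adjusted p = 0.0222). This rise ranked 16 among the 10361 probe sets. WT pools 9 and 11 averaged -0.84 against WT pool 1, and the KO pools lay 0.55 above WT pool 1, so the spread within the WT group exceeded the distance from WT pool 1 to the KO pools. Without WT pool 1 the log2 fold change was 1.39 (limma, adjusted p = 0.0692), and without WT pool 9 it was 0.87 (adjusted p = 0.831). Without KO pool 2 or KO pool 4 it was 1.14 or 1.08, and fits with 1 KO pool cannot decide a call. Fhl2 did not pass after median centring either (1.17, adjusted p = 0.364). Over all 11 alternatives its difference was positive, and it passed under 3. The deleted gene Ebf2 passed after median centring (-2.31, adjusted p = 0.00767) and without WT pool 9 (-2.48, adjusted p = 0.0472). Without WT pool 1 Ebf2 did not pass (-2.27, adjusted p = 0.0657), so a call lost there was not particular to Fhl2. Without KO pool 2 or KO pool 4 Ebf2 was at -2.62 or -2.12.

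Ccn1 and Ccn2 encode secreted matricellular proteins that bind integrins and growth factors, and they are among the targets most used as readouts of YAP and TAZ. Ccn1 (probe set 10502655) read 11.29 in WT pool 1, 10.76 in WT pool 9, 11.09 in WT pool 11, 11.47 in KO pool 2 and 12.11 in KO pool 4. The WT mean of 11.05 ± 0.27 (SD, n = 3) and the KO mean of 11.79 ± 0.45 (SD, n = 2) gave a log2 fold change of 0.74 (SE 0.20, 95% confidence interval 0.32 to 1.17, adjusted p = 0.0876). KO pool 4 stood 0.64 above KO pool 2, and KO pool 2 stood only 0.18 above the highest WT pool. Ccn2 (probe set 10362201) read 10.78, 9.83 and 10.13 in WT and 10.81 and 11.52 in KO. Its log2 fold change was 0.92 (SE 0.24, 95% confidence interval 0.43 to 1.42, adjusted p = 0.0702). KO pool 2 was 0.036 above WT pool 1, so these pools were nearly level, and KO pool 4 stood 0.71 above KO pool 2. Without KO pool 4 the differences were 0.42 for Ccn1 and 0.57 for Ccn2, and against WT pool 1 alone they were 0.50 and 0.39. Both genes passed under 2 of 11 alternatives, a trended robust prior and the filter on low values.

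Ankrd1, an ankyrin repeat protein of muscle and a transcriptional target of YAP and TAZ in many cell types, showed a smaller difference. Its probe set (10467191) read 7.66 in WT pool 1, 7.48 in WT pool 9, 7.52 in WT pool 11, 8.01 in KO pool 2 and 7.85 in KO pool 4. It was the 1 gene of the 6 in which KO pool 2 lay above KO pool 4. The log2 fold change was 0.38 (SE 0.17, 95% confidence interval 0.03 to 0.73, adjusted p = 0.307), and 0.27 against WT pool 1 alone. Of its relatives in the muscle ankyrin repeat family, Ankrd2 was at -0.20 (SE 0.20), or 0.15 against WT pool 1 alone, and Ankrd23 at -0.11 (SE 0.17), and neither passed. The skeletal muscle markers were highest in WT pools 9 and 11, where Ankrd1 was lowest. Against WT pool 1, however, KO pools 2 and 4 were higher both in muscle markers (0.48 and 0.71) and in Ankrd1 (0.35 and 0.19). The part of muscle in the Ankrd1 difference was not tested.

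Among the regulators, Lats2 is the kinase that phosphorylates YAP and TAZ and is itself a target of theirs, and Ajuba is a LIM-domain scaffold that binds LATS kinases and restrains them. Lats2 (probe set 10420413) read 11.20 in WT pool 1, 10.94 in WT pool 9, 11.16 in WT pool 11, 11.27 in KO pool 2 and 11.41 in KO pool 4. Ajuba (probe set 10419790) read 9.36, 9.17 and 9.36 in WT and 9.42 and 9.66 in KO. The log2 fold change was 0.24 for Lats2 (SE 0.17, 95% confidence interval -0.11 to 0.60) and 0.24 for Ajuba (SE 0.17, 95% confidence interval -0.11 to 0.60), and neither passed (adjusted p = 0.533 and 0.530). Against WT pool 1 alone the differences were 0.14 and 0.18. The intervals leave room for no difference as well as for a rise of the size seen in Ankrd1.

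The promoters of these genes are shown because TEAD factors, through which YAP and TAZ act, bind a short motif that can be read from the sequence. RefSeq windows of build GRCm38.p6, from 250 bases before to 50 bases after a transcript start, were at hand for 5 of the 6 genes, with 7 windows in all. They were searched on both strands for the TEAD letters GGAATG, whose complement on the other strand reads CATTCC, for CCCNNGGG, a core of the motif of EBF factors that reads the same on both strands, and for the CArG box of serum response factor (SRF). Of all 32851 windows, 14.7% held the TEAD letters, 13.7% the EBF letters and 1.63% a CArG box. No 2 of these motifs overlapped in the windows printed. In the windows below, capitals mark TEAD letters in Ankrd1 and Ccn1 and the CArG box in Fhl2, and each sequence is written 5′ to 3′ on the gene's strand.
Ankrd1, chr19:36119795-36120094, minus strand: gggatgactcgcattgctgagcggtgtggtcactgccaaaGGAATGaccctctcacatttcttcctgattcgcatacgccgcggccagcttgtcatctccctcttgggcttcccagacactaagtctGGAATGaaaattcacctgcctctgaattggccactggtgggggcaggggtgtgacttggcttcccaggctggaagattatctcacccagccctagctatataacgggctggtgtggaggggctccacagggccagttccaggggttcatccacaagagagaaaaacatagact
Ccn1, chr3:145649936-145650235, minus strand: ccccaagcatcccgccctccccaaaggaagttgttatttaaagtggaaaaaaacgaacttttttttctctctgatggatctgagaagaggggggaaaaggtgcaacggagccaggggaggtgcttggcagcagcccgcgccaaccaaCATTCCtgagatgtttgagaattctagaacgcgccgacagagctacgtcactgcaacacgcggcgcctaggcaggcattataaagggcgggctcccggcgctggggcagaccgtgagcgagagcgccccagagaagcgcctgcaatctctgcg
Fhl2, upstream start, chr1:43196712-43197011, minus strand: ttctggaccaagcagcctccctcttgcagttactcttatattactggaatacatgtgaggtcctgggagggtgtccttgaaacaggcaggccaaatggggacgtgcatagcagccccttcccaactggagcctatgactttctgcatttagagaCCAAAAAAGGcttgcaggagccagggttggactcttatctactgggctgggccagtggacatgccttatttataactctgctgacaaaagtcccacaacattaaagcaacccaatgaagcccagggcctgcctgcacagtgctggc
Fhl2, downstream start, chr1:43163912-43164211, minus strand: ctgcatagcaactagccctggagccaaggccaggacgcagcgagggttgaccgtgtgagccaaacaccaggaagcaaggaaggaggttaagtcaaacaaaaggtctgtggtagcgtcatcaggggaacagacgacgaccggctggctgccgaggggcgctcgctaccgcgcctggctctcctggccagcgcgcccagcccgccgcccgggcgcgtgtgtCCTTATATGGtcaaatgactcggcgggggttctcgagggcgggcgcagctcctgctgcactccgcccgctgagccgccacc

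Ankrd1 held the TEAD letters at 2 places, 210 and 123 bases before the start, as 1.36% of all windows do. Ccn1 held them once, 103 bases before the start, on the other strand. Ajuba held them at 2 places before the start. Lats2 held them at 1 place, which began at base 5 after the start. Thus 4 of the 5 genes had them in a window, against 16.6% of all genes with a window. A gene with more than 1 window, such as Lats2, had more room for a match. Fhl2, the gene with the largest difference, did not have these letters in either window. Each Fhl2 window held 1 CArG box instead, CCAAAAAAGG at 96 bases before the upstream start and CCTTATATGG at 31 bases before the downstream start. The EBF letters were found in 1 window, that of Lats2. A match of letters describes the sequence and does not show binding, and these windows say nothing of sites farther away.

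The wider set of YAP and TAZ targets gave 1 further rise, Tgfb2. Of 17 other genes of a target signature 14 were measured, 1 rose, 0 fell and 13 did not pass. The signature is used across tissues and was not drawn from these samples. Tgfb2, the gene of the growth factor TGF-beta 2, read 9.85 in WT pool 1, 9.13 in WT pool 9, 9.21 in WT pool 11, 10.26 in KO pool 2 and 10.59 in KO pool 4. Both KO pools were above all WT pools (log2 fold change 1.03, SE 0.21, adjusted p = 0.0213), and the difference was 0.57 against WT pool 1 alone. Like that of Fhl2, its call was lost without WT pool 1 (1.26, limma, adjusted p = 0.0692) or WT pool 9 (0.89, adjusted p = 0.831). Without KO pool 2 or KO pool 4 its log2 fold change was 1.19 or 0.87.

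Of the 14 genes 12 had a positive difference, with a median of 0.35, while 49.8% of all probe sets were positive and their median was -0.0017. At unadjusted p below 0.05 there were 7 of 14, all of them higher in KO. Of all probe sets this held for 14.3% in either direction and for 7.14% as a rise. Crim1, a transmembrane protein that binds bone morphogenetic proteins, was at 0.69 (SE 0.20, adjusted p = 0.103) and Myof, the membrane repair protein myoferlin, at 0.68 (SE 0.18, adjusted p = 0.0719). Both were chosen after their values were seen, and against WT pool 1 alone they were at 0.27 and 0.43. The lowest of the list was Dock5, an exchange factor for the GTPase Rac, at -0.24 (SE 0.17, adjusted p = 0.534). Against WT pool 1 alone the median of the list was 0.19, with 12 of 14 genes positive.

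**Figure D2:**
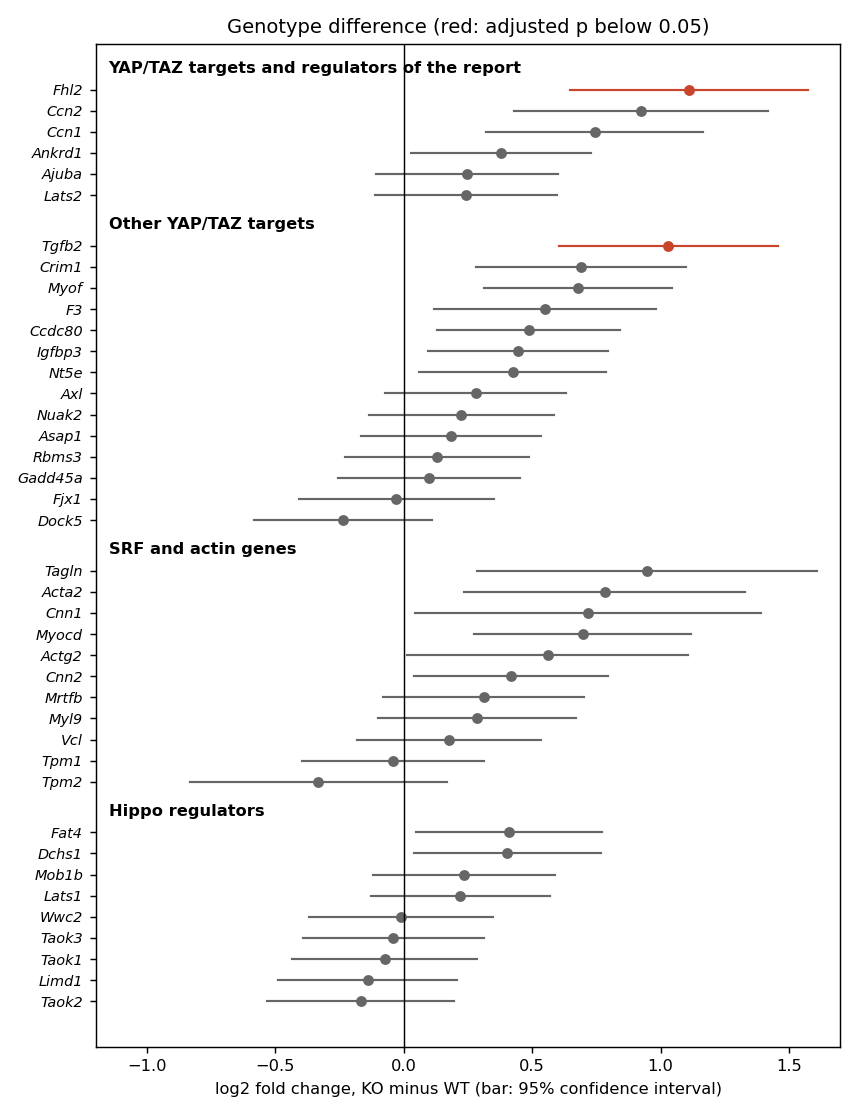
Log2 fold changes, KO minus WT, with 95% confidence intervals for the 6 genes of the report, 14 other YAP and TAZ targets, 11 SRF and actin genes and 9 Hippo regulators; red marks an adjusted p below 0.05. Fhl2 and Tgfb2 are the 2 red points, and the Hippo regulators lie on both sides of 0.

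Of 21 genes of kinases and upstream regulators of the Hippo pathway 9 were measured, and 0 passed. At unadjusted p below 0.05 there were 2 of 9, Fat4 and Dchs1, both higher in KO. Of all probe sets this held for 14.3% in either direction and for 7.14% as a rise. With all pools 4 were positive and 5 negative, with a median of -0.01. This balance rested on the KO pools, with 8 of 9 positive and a median of 0.16 without KO pool 4, and 4 of 9 positive and a median of -0.15 without KO pool 2. The highest was Fat4, a giant cadherin linked to Hippo signalling, at 0.41 (SE 0.17, adjusted p = 0.284), and its KO mean was 0.18 above WT pool 1. The lowest was the kinase gene Taok2 at -0.17 (SE 0.17, adjusted p = 0.661), which was at 0.04 without KO pool 4. Of 7 genes of other TEAD factors and of vestigial-like proteins, which bind TEAD factors as YAP does, 2 were measured. Tead4 was at -0.07 (SE 0.17), or 0.12 against WT pool 1 alone, and Vgll2 at 0.01 (SE 0.21), or 0.52 against WT pool 1 alone, and neither passed (0 at unadjusted p below 0.05).

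Close relatives of the measured genes did not pass either. Among 7 of 8 LIM-domain genes of the FHL and zyxin families 4 were positive, the median was 0.18 and 0 passed. At unadjusted p below 0.05 there were 2 of 7, against 14.3% of all probe sets. Fhl5 was highest at 0.60 (SE 0.22, adjusted p = 0.195), or 0.23 without KO pool 2 and 0.24 against WT pool 1 alone. Fhl3 was lowest at -0.39 (SE 0.18, adjusted p = 0.316), or -0.17 without KO pool 4. Of 4 other CCN genes 2 were measured, Ccn3 at 0.20 (SE 0.17) and Ccn5 at -0.02 (SE 0.17), and neither passed, and Ccn3 was at -0.02 against WT pool 1 alone. Ccn5 turned to 0.04 after median centring and after quantile normalisation. Of 9 laminin and laminin receptor genes 2 were measured, Lamc1 at 0.17 (SE 0.17) and Itgb4 at 0.14 (SE 0.17), or -0.04 against WT pool 1 alone, and neither passed.

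Fhl2 and Ankrd1 are also known from muscle, so genes of SRF and of the actin cytoskeleton were set beside them. Against WT pool 1 alone, 6 of the 11 measured were positive. Of 13 genes 11 were measured, 9 were positive, the median was 0.42 and 0 passed. At unadjusted p below 0.05 in limma there were 6 of 11, all of them higher in KO. Of all probe sets this held for 14.3% in either direction and for 7.14% as a rise. Tagln, a smooth muscle actin-binding protein, was highest at 0.95 (SE 0.32, adjusted p = 0.162). Its level was 10.36 in WT pool 1, 9.00 in WT pool 9, 8.53 in WT pool 11, 10.16 in KO pool 2 and 10.32 in KO pool 4, so WT pool 1 was the highest of the 5 pools. Acta2, the smooth muscle actin, chosen after its values were seen, was at 0.78 (SE 0.26) and at -0.03 against WT pool 1 alone. In 2 of the 11 genes, Myocd (0.70) and Cnn2 (0.42), both KO pools were above every WT pool, against 17.5% of all probe sets. KO pools 2 and 4 stood above WT pool 1 by 0.214 and 0.215 for Myocd and by 0.023 and 0.309 for Cnn2. Tpm2 was lowest at -0.33 (SE 0.24), or 0.36 against WT pool 1 alone. The median of the list was 0.0030 against WT pool 1 alone, where the median of the 6 YAP and TAZ genes was 0.33, against 0.56 with all WT pools. What lay behind these medians was not tested.

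The WT pools also differed from each other in the 6 genes. WT pool 9 was the lowest of the 5 pools in 6 of 6 genes, against 22.7% of all probe sets. In these genes the lowest pool had to be a WT pool, because both KO pools were above every WT pool. Of all probe sets 1810 (17.5%) had the KO pools above every WT pool, and in 1243 of those WT pool 9 was lowest. For the 6 genes this place of WT pool 9 is thus a common one. WT pool 1 was the highest WT pool in 5 of 6, and in Ajuba it shared that place with WT pool 11. Several marker lists differed between the pools too. The mean of 9 of 10 smooth muscle and pericyte markers was 10.66 in WT pool 1, 9.93 in WT pool 9, 9.71 in WT pool 11, 10.61 in KO pool 2 and 10.62 in KO pool 4. That list thus lay at -0.05 and -0.03 in the KO pools against WT pool 1, while Fhl2 lay at 0.52 and 0.59 there. The mean of 5 of 10 fibroblast markers was 11.83 in WT pool 1, 11.65 in WT pool 9, 11.70 in WT pool 11, 12.02 in KO pool 2 and 11.99 in KO pool 4. The mean of 7 of 10 perineurium markers was 10.67, 10.22 and 10.51 in WT and 10.85 and 10.96 in KO. The 4 measured tendon markers averaged 10.06, 9.77 and 9.97 in WT and 10.47 and 10.55 in KO, and 10 endothelial markers 10.67, 10.28 and 10.25 in WT and 10.90 and 10.64 in KO. The means of the fibroblast, perineurium and tendon lists were higher in both KO pools than in every WT pool, and their part in the differences of the 6 genes was not tested. Gene by gene the lists were mixed. The groups did not overlap, with KO higher, in 3 of 5 fibroblast, 3 of 7 perineurium and 3 of 4 tendon markers. This also held for 4 of 10 endothelial and 2 of 9 smooth muscle and pericyte markers, against 17.5% of all probe sets. All 10 endothelial markers had a positive difference. The mean of the 4 measured Schwann cell markers was instead lower in both KO pools than in every WT pool. In 2 of these 4, Erbb3 (-0.47) and Cdh19 (-0.56), the groups did not overlap, with KO lower, against 13.3% of all probe sets. For Sox10 (-0.20) and Foxd3 (0.02) the groups overlapped, and 0 of the 4 were called. Slc2a1, the glucose transporter of perineurium, was lower (-0.43). Each of the perineurium and tendon lists held 1 called gene, Moxd1 (1.62) and Kera (1.99). Without Kera the tendon mean was 10.02 in KO pool 2 and 10.04 in WT pool 11, and without Moxd1 the perineurium mean was 11.01 in KO pool 2 and 10.98 in WT pool 1.

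**Figure D3:**
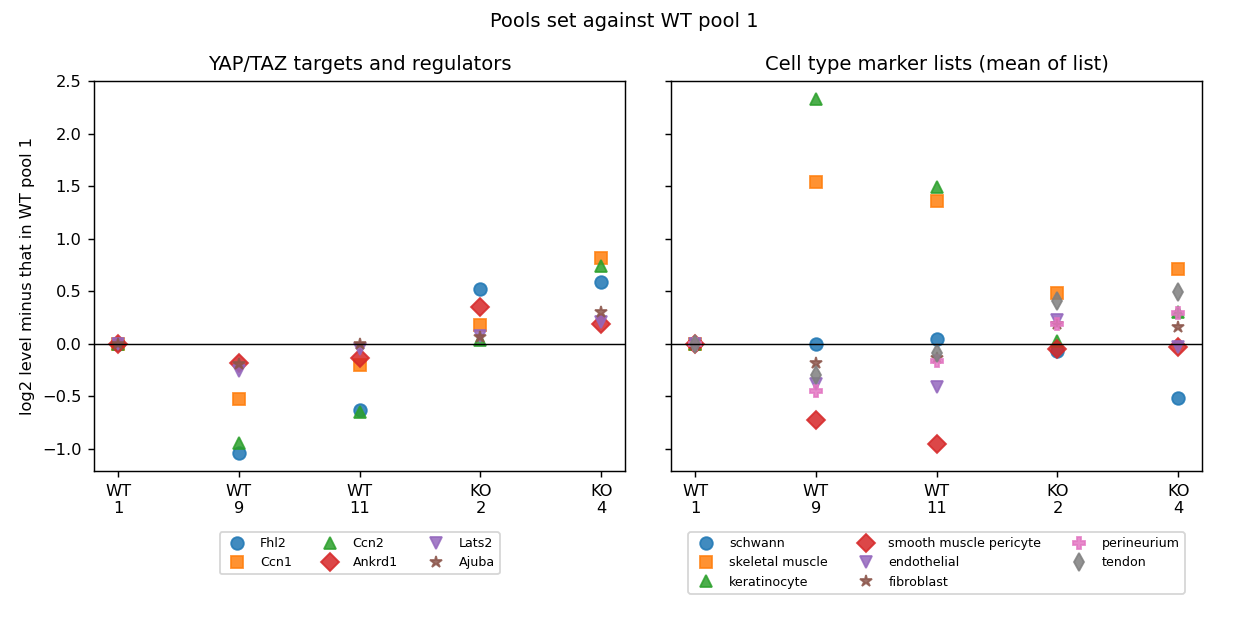
Log2 level of each pool minus that in WT pool 1, for the 6 genes (left) and for the mean of 8 cell type marker lists (right). All 6 genes lie above 0 in both KO pools. Smooth muscle and pericyte markers lie near 0 in the KO pools (-0.05 and -0.03) and below it in WT pools 9 and 11. In the KO pools the skeletal muscle, keratinocyte, fibroblast, perineurium and tendon lists lie above 0. The Schwann list lies below 0 there, and the endothelial list on both sides.

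The 6 genes ranked the pools in nearly the same order, with WT pool 9 lowest and the KO pools highest. Ankrd1 alone had KO pool 2 above KO pool 4. The genes differed in the size of the change, with a range over the pools from 0.469 in Lats2 to 1.695 in Ccn2. Likeness was measured as the root mean square difference between the 5 pool values of 2 genes after each gene's own mean was subtracted. The values were not scaled, so likeness depends on the size of a change as well as on its shape. Lats2 and Ajuba, both with little range, were at 0.039, and among the other named genes of the table Lats2 ranked 84 in likeness to Ajuba and Ajuba 113 in likeness to Lats2. Ccn1 and Ccn2 were at 0.18, and Ccn1 ranked 14 in likeness to Ccn2 while Ccn2 ranked 117 in likeness to Ccn1. Fhl2 and Ccn2 were at 0.23. Ankrd1 was at 0.13 from Lats2, 0.15 from Ajuba, 0.33 from Ccn1 and 0.46 from both Ccn2 and Fhl2. The genes most like Fhl2 over the 5 pools were the forkhead factor gene Foxc1 (0.095), the collagen prolyl hydroxylase gene P4ha3 (0.11) and Lrrc32 (0.12), which encodes a cell surface protein that holds latent TGF-beta. Because they were picked for likeness over KO and WT pools together, a difference near that of Fhl2 follows from the choice. Their log2 fold changes were 1.02 for P4ha3 and 0.97 for Lrrc32 (limma, adjusted p = 0.0372 and 0.0356) and 0.93 for Foxc1 (adjusted p = 0.0506). The genes most like Ccn1 were Bmp2 (0.052), Lrig3 (0.054) and Fam107b (0.057), and those most like Ccn2 were E2f8 (0.087), Stil (0.13) and Lrig3 (0.13). Smad3 (0.032), Ifitm3 (0.042) and Glis3 (0.044) were nearest to Ankrd1, Smpd4, Rabgap1l and Gpx7 to Lats2, and Ccnk, Pon2 and Wtap to Ajuba. With 5 pools many genes share a pattern, and these are descriptions only.

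**Figure D4:**
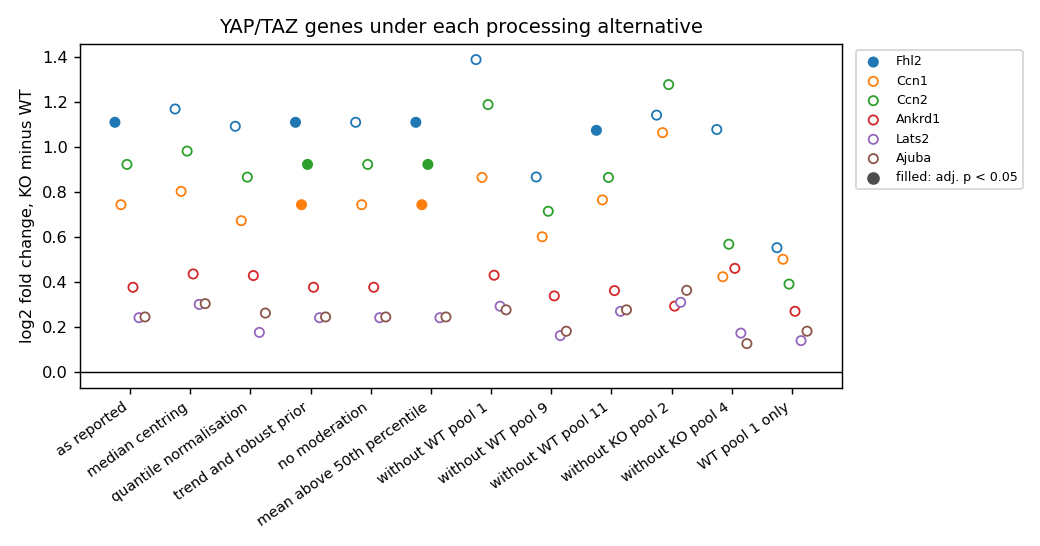
Log2 fold change, KO minus WT, of the 6 genes as reported and under each alternative setting; filled points passed an adjusted p below 0.05. All points lie above 0, Fhl2 is filled as reported and under 3 of 11 alternatives, and its lowest value, 0.55, is that against WT pool 1 alone.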

How the data were processed

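Total RNA of 5 pools of 12 sciatic nerves was turned into biotin-labelled cDNA with an Affymetrix kit and read on 1 array for each pool, per the labels' protocols. The authors made log2 expression values with RMA, per the submitters' processing notes. The RMA version, settings and any filter are not stated there. The table held 10361 probe sets with log2 values from 2.84 to 14.3. Names came from the platform annotation and RefSeq (GRCm38.p6): 9411 probe sets had 1 symbol, 384 several and 566 were not listed, and a gene with several probe sets was represented by that of the highest mean.

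Genotypes were compared with limma 3.58.1 in R 4.3.3 (lmFit, eBayes with default prior, no covariates), two-sided, with Benjamini-Hochberg adjustment over the whole table of 10361 probe sets, and with 3 residual and 17.4 prior degrees of freedom. The fit was tested on simulated data. The labels do not say that pools came from separate litters, so p-values reflect the variation among pools, some of which may be technical, and the number of arrays limits the precision. The genes named are the listed YAP/TAZ genes, any called gene and the highest and lowest gene of each list, and the 3 genes most like each. Some further genes of the target, SRF and marker lists were named after their values were seen. The genes and lists were chosen with earlier results of these data known, so no test was made over a list. Alternatives were median centring, quantile normalisation, another prior, no moderation, a filter on low values, leaving out each pool, and WT pool 1 as the only WT pool.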

Additional observations from a re-analysis of the deposited data

How the results depend on the processing

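The 6 YAP and TAZ genes kept a positive difference under every alternative in which they were measured (11 each, 10 for Ankrd1, whose mean was under the 50th percentile). Whether they passed depended on the setting. Of the 6 genes 1 passed as reported, 0 passed after median centring, quantile normalisation, without moderation (4, 4 and 1 at unadjusted p below 0.05) or against WT pool 1 alone (1 at unadjusted p below 0.05), and 3 passed with a trended robust prior or with the filter above the 50th percentile. Leaving out 1 pool gave 0 to 1, the 1 only without WT pool 11. Of the other 49 pathway genes 1 passed as reported, 0 under the same 4 alternatives (15, 13, 5 and 0 at unadjusted p below 0.05), 7 with the trended robust prior, 5 with the filter, and 0 to 1 when 1 pool was left out. Over all probe sets, calls numbered 70 as reported, 1 after median centring, 1 after quantile normalisation, 0 without moderation (498 at unadjusted p below 0.05), 0 against WT pool 1 alone (127), 574 with the trended robust prior and 287 with the filter. Leaving out 1 pool gave 0 to 105 calls. The filter also left fewer probe sets (5180), and leaving out a pool left fewer pools. The cause of these differences in calls was not tested.

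Of the 49 other pathway genes, 12 turned sign against WT pool 1 alone, 6 after median centring, 2 after quantile normalisation and 1 to 8 when 1 pool was left out, 8 of them without KO pool 4. None of these had passed. Among those named in the text, the values against WT pool 1 alone were Ankrd2 (0.15), Ccn3 (-0.015), Ccn5 (0.0725), Itgb4 (-0.0435), Tagln (-0.12), Acta2 (-0.029), Tead4 (0.12) and Tpm2 (0.36). Ccn5 was at 0.038 after median centring and at 0.041 after quantile normalisation. When 1 pool was left out, of the named genes Ankrd2 ran from -0.37 to 0.0095, Ccn5 from -0.13 to 0.082, Taok2 from -0.38 to 0.039, Tead4 from -0.16 to 0.0050 and Vgll2 from -0.24 to 0.15. Fits without a KO pool or with WT pool 1 alone leave 1 pool in a group, which is assumed to vary like the other group. No paired analysis was possible because the pools of the genotypes share no number.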
